A study of Rattus norvegicus with 6 samples.

Results

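Transcripts of 8 proteins that skeletal muscle can release, the myokines and muscle growth factors Ostn, Fndc5, Il15, Fgf21, Metrnl, Apln, Igf1 and Bdnf, were followed in the gastrocnemius muscle of rats fed 3 diets. The genes were taken by symbol from the platform annotation of the Affymetrix Rat Gene 1.0 ST array. Each of the 8 matched 1 transcript cluster, the set of probes that reports a gene, so the rule, under which a symbol with several clusters would have had its row chosen by the highest mean signal, had nothing to decide. The symbols themselves were selected with earlier results of these data known. They are 8 of 14506 named genes in a table of 29214 clusters. The animals were male Sprague-Dawley rats, obese through diet, that ate freely from 12 weeks of age for 8 weeks and were 20 weeks old at sampling. All diets were rich in fat and sucrose, held 4.6 kcal/g and gave 10% of energy as protein. On the leucine diet the protein energy was 7.1% casein and 2.9% free leucine, on the dairy diet it came from skim milk powder, and on the casein diet, the control, from casein alone. Each diet is represented by 2 arrays although the design text speaks of 4 rats per diet, and no label says whether the arrays of a diet stem from separate rats. The p-values therefore measure the spread between these arrays, which may be technical, and the number of arrays limits their precision.

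Myokines are hormones and cytokines made by muscle fibres that act on the muscle itself or on distant organs such as fat, bone, liver and brain. Ostn encodes osteocrin, also called musclin, which resembles natriuretic peptides and binds their clearance receptor NPR3. Fndc5 encodes the membrane precursor of irisin, and Igf1 encodes insulin-like growth factor 1, the local growth signal of muscle that is held by a family of binding proteins. Fgf21 and Igf1 are also made in large amounts by liver, and Apln, Il15 and Bdnf are made by several other cell types.

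Contractile markers of fast fibres, which dominate gastrocnemius, were bright on every array, with Myh4 between 12.8 and 13.2 on the log2 scale of the deposited signals. Markers of other cells varied. The hepatocyte marker Alb ranged from 4.81 to 11.7 over the 6 arrays, and the submitters' protocol texts mention liver in the storage and extraction steps while the tissue label is gastrocnemius. Casein array 2 stood apart from the others. On it 177 genes were more than 2-fold above every other array and 64 more than 2-fold below, and the slow-fibre myosin Myh7 read 6.07 there against 10.7 to 11.4 on the other 5. Comparisons with casein are therefore also given without this array where that moved a value by more than 1.5 times or turned its direction.

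**Figure D1:**
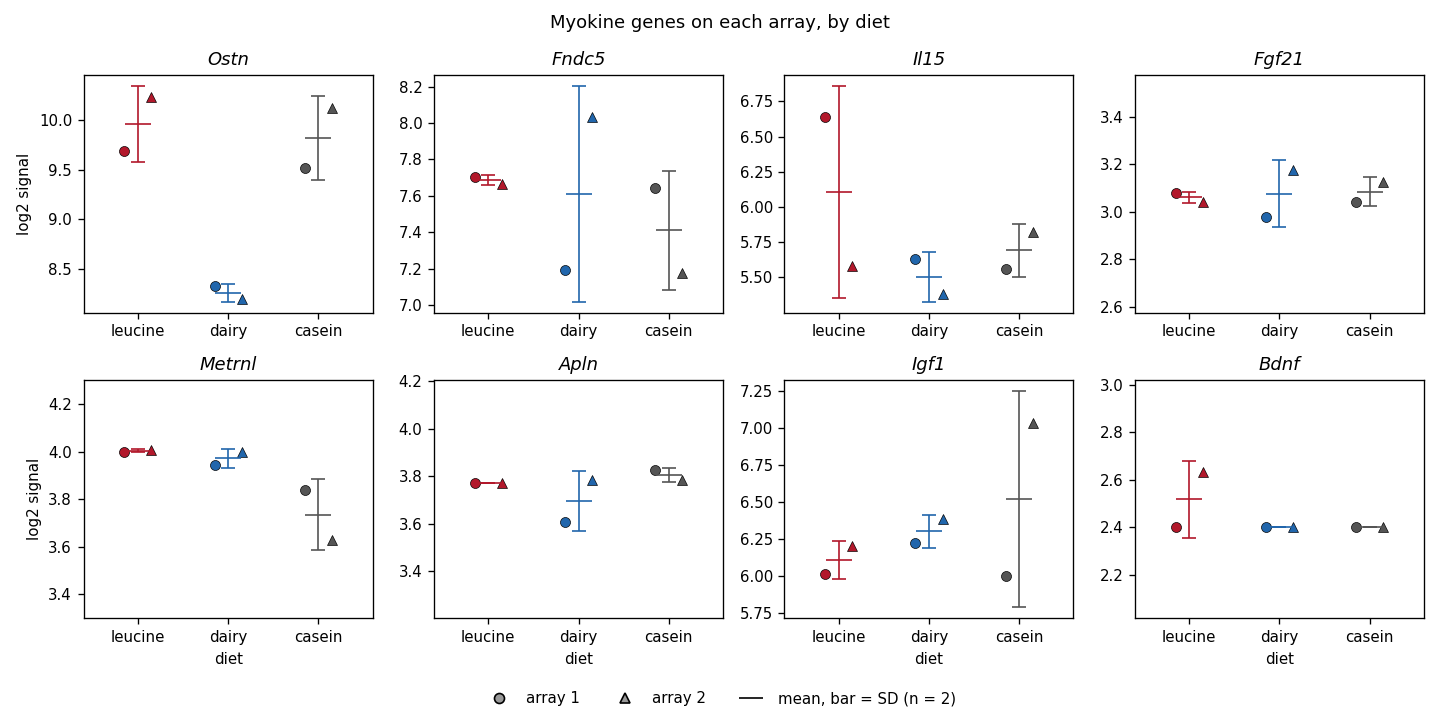
Log2 signal (vertical axes, each at its own height) of the 8 myokine genes on the 2 arrays of each diet (horizontal axis: leucine, dairy, casein), with the mean and SD of the 2 arrays. Ostn stands lower on both dairy arrays than on the other 4, Il15 is high on leucine array 1 alone, and Igf1 is high on casein array 2 alone.

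Ostn was the myokine transcript with the widest range, 2.04 log2 units over the 6 arrays. Its log2 signal was 9.69 and 10.2 on the leucine arrays, 8.33 and 8.20 on the dairy arrays, and 9.52 and 10.1 on the casein arrays. Both dairy arrays lay below the other 4, whereas the leucine and casein arrays overlapped. Dairy muscle averaged 8.26 ± 0.09 and casein muscle 9.82 ± 0.42 (SD, n = 2 each). The difference on the log2 scale was −1.56 with a standard error (SE) of 0.28, which is 2.94-fold lower with dairy, and differences are given below as value ± SE. Each SE rests on a spread pooled over all diets, so arrays outside a comparison also enter it. Leucine muscle averaged 9.96 ± 0.38, which was 1.70 ± 0.28 log2 units, or 3.25-fold, above dairy muscle. Neither difference passed the limma test once adjusted over all 14506 genes. The adjusted p was 0.833 for dairy against casein (unadjusted p = 0.00415) and 0.514 for leucine against dairy (unadjusted p = 0.00293). Leucine and casein muscle differed by 0.14 ± 0.28, with a 95% confidence interval of −0.62 to 0.90.

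By size, the Ostn difference between leucine and dairy was at rank 3 among the 14506 genes ordered from most to least higher with leucine, and that between dairy and casein at rank 35 among those ordered from most to least lower with dairy. These ranks describe a gene that was picked with earlier results of these data known. With any 1 array left out, the dairy minus casein value lay between −1.85 and −1.26 and the leucine minus dairy value between 1.43 and 1.97. Without casein array 2, dairy minus casein stood at −1.26. The leucine minus casein value had no stable direction, at −0.15 without casein array 1, −0.13 without leucine array 2 and 0.44 without casein array 2.

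Ostn is known from mouse as a product of muscle fibres and bone-forming cells, so fibre and liver markers were read beside it. In bulk tissue, fewer cells of a type and less RNA per cell cannot be told apart. The summed signal of 9 measured fast-fibre markers, as log2, was 15.4 on both leucine arrays, 15.8 and 15.6 on the dairy arrays, and 15.7 and 15.4 on the casein arrays. Dairy array 1 had the highest sum, while dairy array 2 lay below casein array 1 and above casein array 2 and both leucine arrays. The summed slow-fibre markers read 13.4 and 13.7 with leucine, 13.0 and 13.2 with dairy, and 13.4 and 9.52 with casein. Both dairy arrays lay below both leucine arrays and casein array 1, and casein array 2, with the lowest sum, had an Ostn signal of 10.1. The summed hepatocyte markers read 6.94 and 10.3 with leucine, 8.72 and 7.15 with dairy, and 9.85 and 12.0 with casein. They too were lower on both dairy arrays than on both casein arrays, where Alb alone read 9.48 and 11.7. All 10 markers stood lower with dairy than with casein (46.3% of all genes), with a median of −1.92, or −0.75 without casein array 2. Against casein all 10 were lower with leucine too, with a median of −1.43, or −0.36 without that array. Against dairy 9 were higher with leucine and 1 lower, with a median of 0.44. The highest sums, 12.0 and 10.3, were on casein array 2 and leucine array 2, where Ostn also read highest, at 10.1 and 10.2. Leucine array 1, with the lowest sum, had an Ostn signal of 9.69. The part of fast-fibre, slow-fibre or liver transcripts in the Ostn difference was not tested.

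Receptors for osteocrin and the other factors were taken as a list of 18 genes, of which 15 were measured. Npr3, the natriuretic peptide clearance receptor that osteocrin binds, read 4.32 and 4.73 on the leucine arrays, 6.20 and 5.43 on the dairy arrays, and 5.75 and 6.69 on the casein arrays. Both leucine arrays lay below the other 4. Leucine minus casein was −1.69 ± 0.44 (limma adjusted p = 0.414), or −1.22 without casein array 2, and leucine minus dairy was −1.29 ± 0.44 (limma adjusted p = 0.849). Ostn was thus low under dairy and its receptor gene low under leucine, and neither passed the test over all genes. Npr2, a guanylyl cyclase receptor of natriuretic peptides, stood 0.75 ± 0.39 higher with dairy than with casein, but 0.27 higher without casein array 2.

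Fndc5 read 7.71 and 7.67 on the leucine arrays, 7.19 and 8.03 on the dairy arrays, and 7.64 and 7.18 on the casein arrays. The dairy arrays differed from each other by more than the means of any 2 diets did. Leucine and casein arrays did not overlap, at 7.69 ± 0.03 and 7.41 ± 0.33 (SD, n = 2 each), but the log2 fold change was 0.28 ± 0.33 (limma adjusted p = 0.768) and 0.04 without casein array 2. Dairy minus casein was 0.20 ± 0.33 and leucine minus dairy 0.07 ± 0.33. The first of these was −0.03 without casein array 2 and −0.22 without dairy array 2, and the second was −0.35 without dairy array 1. No order of the 3 diets can be read for this gene. Ppargc1a, a coactivator known to raise Fndc5 expression in mouse muscle, stood 0.39 ± 0.27 higher with leucine than with casein (limma adjusted p = 0.674), and its reading of 6.92 on leucine array 1 was well above the 6.26 on leucine array 2.

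Il15, a cytokine that supports lymphocytes and is also made by muscle fibres, was high on 1 array. Its log2 signal was 6.64 and 5.58 with leucine, 5.63 and 5.38 with dairy, and 5.56 and 5.83 with casein. Leucine array 1 stood above all others, and the remaining 5 arrays spanned 5.38 to 5.83. Leucine minus casein was 0.42 ± 0.39 (limma adjusted p = 0.709) and leucine minus dairy 0.61 ± 0.39 (limma adjusted p = 0.903). Without leucine array 1 these were −0.11 and 0.07. Dairy minus casein was −0.19 ± 0.39, or −0.06 without casein array 2. The receptor chains Il2rb and Il2rg were measured in the receptor list, Il2rb with the same 3.04 on every array. Il15ra was not found there under this symbol.

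Igf1 was high on 1 array as well. Its log2 signal was 6.02 and 6.20 with leucine, 6.22 and 6.38 with dairy, and 6.003 and 7.03 with casein. Casein array 2 stood above the rest and casein array 1 was the lowest of the 6. Leucine minus casein was −0.41 ± 0.36 (limma adjusted p = 0.702) and dairy minus casein −0.22 ± 0.36 (limma adjusted p = 0.888). Without casein array 2 both turned round, to 0.11 and 0.30. The leucine arrays lay below the dairy arrays without overlap, with an average difference of −0.19 ± 0.36 (limma adjusted p = 0.953). The pooled spread behind this SE includes the casein arrays, whose SD was 0.73 against 0.13 with leucine and 0.11 with dairy. Casein array 2 also had the highest summed hepatocyte markers, 12.0 as log2, and the highest summed macrophage markers, 9.74 against 8.34 to 9.27 on the other 5. Their part in the Igf1 signal was not tested.

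Of the 8 genes, 7 have a promoter window in the RefSeq table for rat build GRCr8, and Ostn is the one without an entry. The windows of Il15 and Igf1 are shown because these are the remaining members whose signal ranged over more than 1 log2 unit. Each runs from 250 bases before to 50 bases after an annotated transcript start, 5′ to 3′ on the plus strand, at chr19:42544456-42544755 for Il15 and chr7:24172282-24172581 for Igf1. Capitals mark E-boxes, the letters CANNTG, to which myogenic factors among others can bind.
Il15: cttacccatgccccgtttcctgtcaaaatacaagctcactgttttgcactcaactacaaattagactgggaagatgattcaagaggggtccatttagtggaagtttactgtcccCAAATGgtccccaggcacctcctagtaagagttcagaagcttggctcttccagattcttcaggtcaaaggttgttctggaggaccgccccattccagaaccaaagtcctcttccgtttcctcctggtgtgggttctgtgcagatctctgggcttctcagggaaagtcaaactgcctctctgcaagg
Igf1: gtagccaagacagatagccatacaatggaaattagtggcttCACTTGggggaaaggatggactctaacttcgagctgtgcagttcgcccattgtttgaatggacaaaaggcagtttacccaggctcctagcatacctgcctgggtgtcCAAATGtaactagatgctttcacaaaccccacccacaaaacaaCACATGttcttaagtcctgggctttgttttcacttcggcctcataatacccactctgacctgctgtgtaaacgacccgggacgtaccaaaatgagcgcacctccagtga
The Il15 window holds 1 E-box and the Igf1 window 3, and 72.1% of 33469 rat promoter windows of this length hold at least 1. Neither window holds TGACGTCA, the binding site of CREB, GTAAACA, that of FoxO factors, or TTCNNNGAA, that of STAT5, on either strand. Those letters occur in 1.83%, 3.78% and 8.87% of all windows. A match is a string of letters and not a site shown to be used, and the diets were not compared at these sequences.

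Metrnl, which encodes meteorin-like, a factor released by muscle and fat, read 4.00 and 4.01 on the leucine arrays, 3.94 and 4.00 on the dairy arrays, and 3.84 and 3.63 on the casein arrays. Both casein arrays lay below the other 4, and the leucine and dairy arrays overlapped. Leucine minus casein was 0.27 ± 0.09, or 1.21-fold (limma unadjusted p = 0.0385, adjusted p = 0.482), and dairy minus casein was 0.24 ± 0.09, or 1.18-fold (adjusted p = 0.833). These comparisons share the casein arrays. Without casein array 2 they were 0.16 and 0.13, and without casein array 1 they were 0.37 and 0.34.

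Fgf21, Apln and Bdnf gave flat readings. Fgf21, a hormone that muscle releases under mitochondrial or amino acid stress, read 3.08 and 3.04 with leucine, 2.98 and 3.18 with dairy, and 3.04 and 3.13 with casein. Apln, the ligand of the apelin receptor, read 3.77 on both leucine arrays, 3.61 and 3.78 with dairy, and 3.83 and 3.78 with casein. Bdnf, a neurotrophin, read 2.40 on every array except leucine array 2, where it read 2.63. In all 9 differences between diets of these 3 genes the 95% confidence interval included 0. For Fgf21, leucine minus casein was −0.02, with an interval of −0.27 to 0.22, and dairy minus casein −0.01, with an interval of −0.26 to 0.24, and without casein array 2 they were 0.02 and 0.03. For Apln the same differences were −0.03, with an interval of −0.26 to 0.19, and −0.11, with an interval of −0.33 to 0.11, and the first was −0.06 without casein array 2. For Bdnf leucine minus casein was 0.11, with an interval of −0.14 to 0.37, and it was 0 without leucine array 2.

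The flat readings need a caution about the values. The deposited numbers repeat between arrays, and Bdnf had 2 distinct values over 6 arrays while Fgf21, Apln and Metrnl had 5. Such repeats occurred in 60.8% of all named genes, in 77.4% of those at or below the median gene and in 44.2% of those above it. Values also recurred between genes. The 2.40 of Bdnf was also that of Nrg1 on every array and of Il6 on both leucine arrays. The 3.04 of Fgf21 on casein array 1 and leucine array 2 was that of Il2rb on every array. An SD of 0, as for Bdnf with dairy and with casein, is thus a property of the deposited values and no measure of animal spread. Fgf21, Apln, Bdnf and Metrnl all lay below the median gene, whose mean log2 signal was 4.15, and no detection call was available here to say whether they were above background. Signals of different clusters also depend on their probes, so the genes are not ranked by level.

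**Figure D2:**
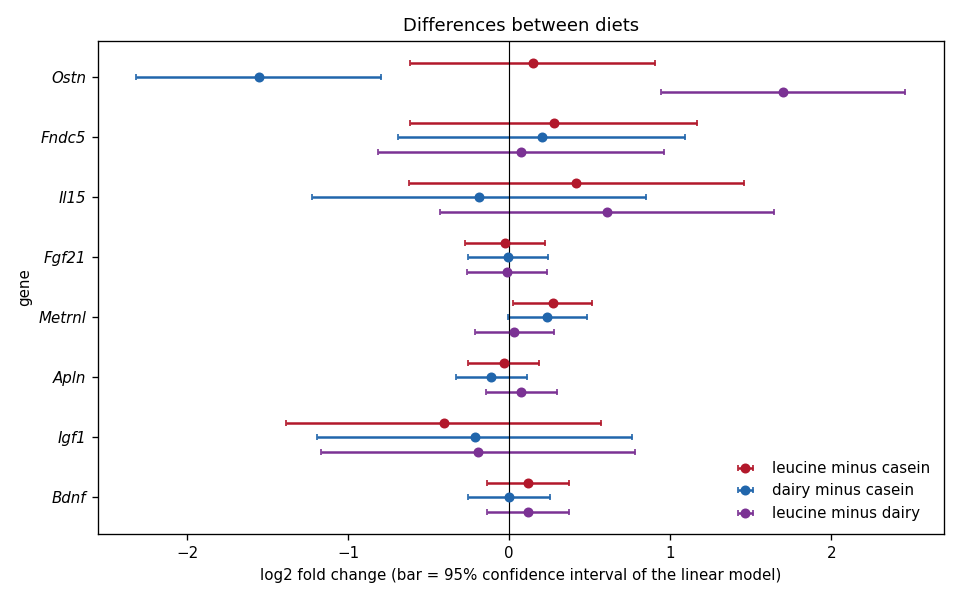
Log2 fold change (horizontal axis) of each myokine gene (vertical axis) for leucine minus casein, dairy minus casein and leucine minus dairy, with the 95% confidence interval of the linear model. The Ostn intervals exclude 0 for dairy minus casein and for leucine minus dairy, the Metrnl interval excludes 0 for leucine minus casein, and the other 21 include it; these intervals are not adjusted for the number of genes.

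Over the whole set, 0 of 8 genes passed an adjusted p of 0.05 in any comparison, as did 0 of 14506 genes (0%), with lowest adjusted p of 0.353 for leucine against casein, 0.833 for dairy against casein and 0.514 for leucine against dairy by limma. The unadjusted p was under 0.05 for 1 of 8 in each comparison, Metrnl in leucine against casein and Ostn in the others. Among all genes it was under 0.05 in 9.61% for leucine against casein, 4.8% for dairy against casein and 5.7% for leucine against dairy. No overlap between the arrays of the compared diets was found for 3 of 8 in leucine against casein, 2 of 8 in dairy against casein and 2 of 8 in leucine against dairy, where all genes gave 31.5%, 23.2% and 28.3%. With so few genes, 1 more or less moves these shares past the background, so they are not a result about the set. The median log2 fold change of the 8 genes was 0.13 for leucine minus casein, −0.06 for dairy minus casein and 0.08 for leucine minus dairy, and the medians of all genes were 0, 0.0028 and 0. Only Ostn differed over 2-fold, in dairy against casein and in leucine against dairy, as did 0.938% and 0.731% of all genes. In leucine against casein 0 of 8 did so, and 1.47% of all genes. In leucine minus casein 5 of the 8 were higher and 3 lower, and without casein array 2, 7 were higher and 1, Apln, lower, with a median of 0.11. In dairy minus casein 2 were higher and 5 lower, and without that array 3 were higher and 4 lower, with a median of −0.02. In leucine minus dairy 6 were higher and 2 lower. Of all genes 48.5% were higher and 49.1% lower in leucine minus casein, 50.6% and 46.3% in dairy minus casein, and 48.4% and 48.5% in leucine minus dairy. The limma F test over the 3 diets together called 0 genes (0%), with 7.25% at an unadjusted p under 0.05, and gave Ostn an adjusted p of 0.530.

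**Figure D3:**
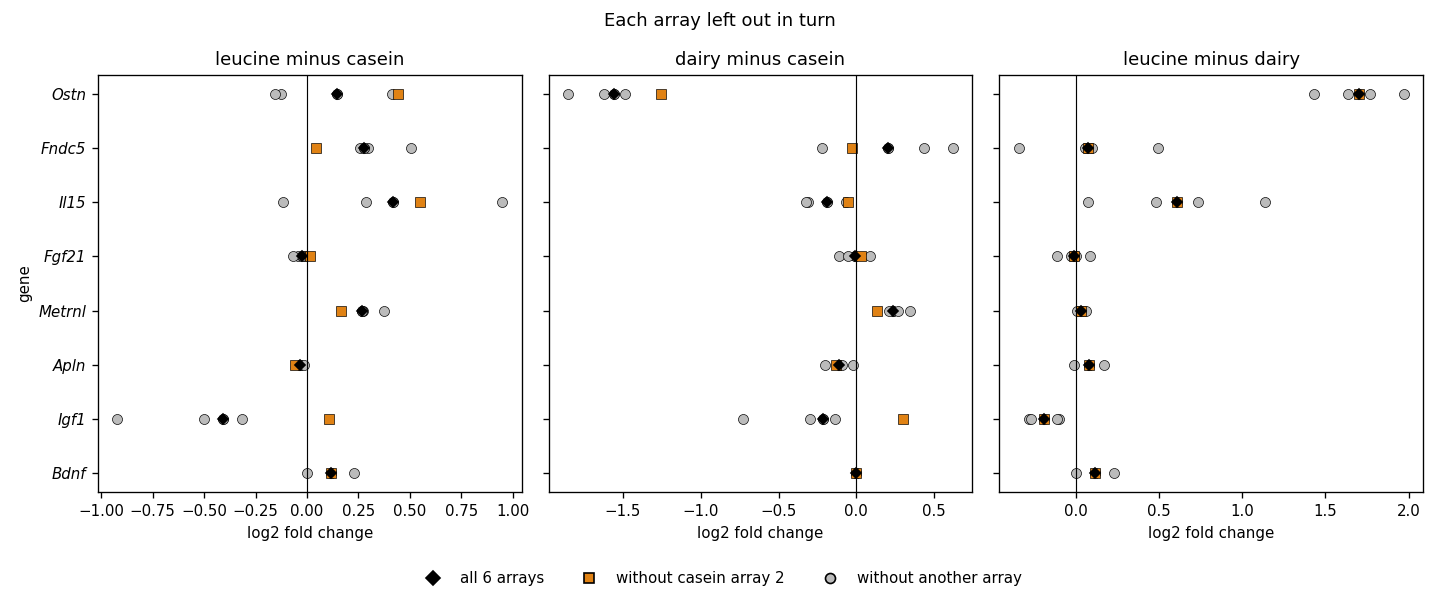
Log2 fold change (horizontal axes) of each myokine gene (vertical axis) in the 3 comparisons, from all 6 arrays and with each array left out in turn. The Ostn points stay on 1 side of 0 in the dairy minus casein and leucine minus dairy panels, between −1.85 and −1.26 and between 1.43 and 1.97, whereas the Igf1 points cross 0 without casein array 2 in both comparisons with casein.

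The proteins that hold IGF1 outside the cell and the growth hormone axis that drives its transcription were followed in 17 genes, all measured. With leucine 14 of 17 stood lower than with casein and 3 higher, with a median log2 fold change of −0.38, where 49.1% of all genes stood lower, 48.5% higher and their median was 0. By limma 0 of 17 passed over all genes, and 7 had an unadjusted p under 0.05, all in the lower direction, as did 4.85% of all genes. Without casein array 2 the median was −0.21, with 13 lower and 4 higher. Igfbp6, a binding protein that prefers IGF2, read 5.61 and 4.79 on the leucine arrays, 7.44 and 7.64 on the dairy arrays, and 7.25 and 7.40 on the casein arrays. It was −2.13 ± 0.29 against casein (limma adjusted p = 0.353) and −2.34 ± 0.29 against dairy (limma adjusted p = 0.514), and both leucine arrays lay below the other 4. Socs2, a feedback inhibitor of the growth hormone receptor, stood at 6.01 with leucine and 7.25 with casein on average, a difference of −1.24 ± 0.34 (limma adjusted p = 0.414), or −0.76 without casein array 2.

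Igfbp3, the main carrier of IGF1 in blood, had a narrow spread. It read 4.48 and 4.51 with leucine, 4.42 and 4.47 with dairy, and 4.69 and 4.77 with casein. Leucine minus casein was −0.24 ± 0.06 and dairy minus casein −0.29 ± 0.06 (limma adjusted p = 0.414 and 0.833), and both casein arrays lay above the other 4. Igfbp5, a binding protein bound to matrix, and Igfbp7, a related secreted protein, stood at −1.38 ± 0.38 and −0.60 ± 0.13 in leucine minus dairy (limma adjusted p = 0.740 and 0.595). Igfbp1, a binding protein made mainly by liver, and Pappa, a protease that cleaves IGF-binding proteins, stood at −0.56 ± 0.20 and −0.39 ± 0.12 in dairy minus casein. They stood at −0.31 and −0.23 without casein array 2. Both genes lay below the median gene, and Pappa read the same 2.71 on both dairy arrays and on leucine array 1. The caution about repeated values thus holds for Pappa too. In dairy minus casein the list had 7 genes higher and 10 lower with a median of −0.11 (all genes 50.6% and 46.3%), and 12 higher and 5 lower with a median of 0.06 without casein array 2. In leucine minus dairy it had 7 higher and 10 lower with a median of −0.17 (all genes 48.4% and 48.5%).

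**Figure D4:**
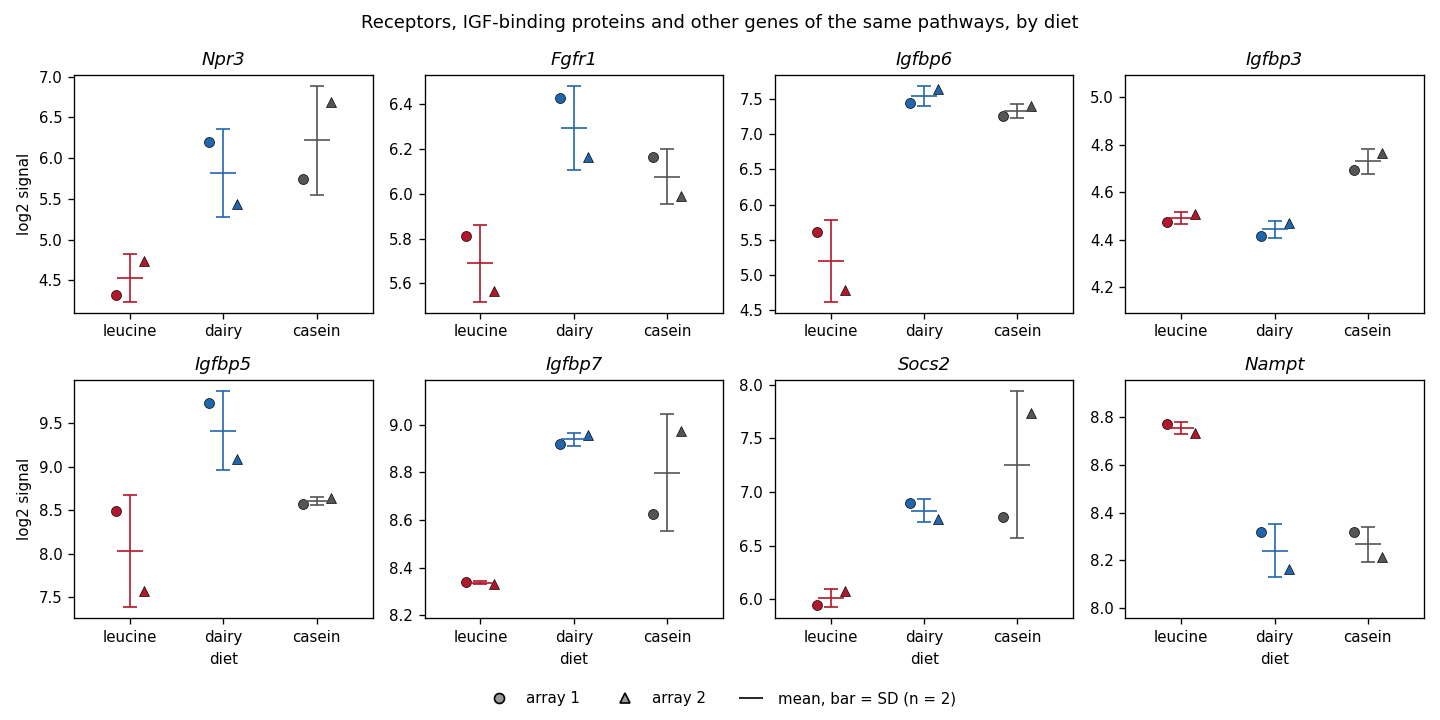
Log2 signal (vertical axes, each at its own height) of 8 genes from the receptor, IGF and secreted-factor lists on the 2 arrays of each diet (horizontal axis: leucine, dairy, casein), with the mean and SD of the 2 arrays. Npr3, Fgfr1, Igfbp5, Igfbp6, Igfbp7 and Socs2 are lower on both leucine arrays than on the other 4, and Nampt is higher. Igfbp3 is higher on both casein arrays.

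Fibroblast markers, Dcn among them, were low on the same arrays. All 8 stood lower with leucine than with casein and than with dairy, with medians of −0.89 and −1.41, and 7 of 8 stood lower than with casein when casein array 2 was left out. Their summed log2 signal was 9.96 and 9.78 with leucine, 11.6 and 11.01 with dairy, and 11.15 and 11.05 with casein. Macrophage markers stood lower with leucine in 10 of 10 against casein and against dairy, with medians of −0.57 and −0.67, and in 6 of 10 against casein without casein array 2, with a median of −0.28. Their summed log2 signal was 8.55 and 8.34 with leucine, 9.27 and 9.18 with dairy, and 8.72 and 9.74 with casein. Adipocyte markers stood lower in 8 of 8 against dairy, with a median of −0.61, and in 6 of 8 against casein, with a median of −0.69, or −0.39 without casein array 2. Their sums were 8.12 and 8.03 with leucine, 8.99 and 8.28 with dairy, and 8.34 and 8.91 with casein. For all 3 lists both leucine arrays had sums below the other 4. The same held for nerve and Schwann cell markers, at 6.54 on both leucine arrays against 7.35 to 7.68. It held narrowly for fast-fibre markers, at 15.44 and 15.40 against 15.45 to 15.82. The part of these cells and fibres in the Igfbp6, Igfbp7, Fgfr1, Npr3, Socs2 and other low readings with leucine was not tested. For Igf1 itself the leucine arrays were not below casein array 1, at 6.02 and 6.20 against 6.003.

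The remaining receptors differed less. Fgfr1, which carries the FGF21 signal together with a co-receptor, read 5.81 and 5.57 with leucine, 6.43 and 6.16 with dairy, and 6.16 and 5.99 with casein, with differences of −0.39 ± 0.15 from casein and −0.61 ± 0.15 from dairy (limma adjusted p = 0.522 and 0.619). Ntrk2, the receptor of BDNF, stood at −0.28 ± 0.12 in leucine minus casein, or −0.16 without casein array 2, and at −0.26 ± 0.12 in leucine minus dairy. Kit, reported as a receptor of meteorin-like in mouse, stood at −0.20 ± 0.12 in dairy minus casein, and Igf1r, the IGF1 receptor, at 0.31 ± 0.18, or 0.06 without casein array 2. Ntrk2 and Kit lay below the median gene, and Ntrk2 read the same 3.20 on casein array 1 and dairy array 2. Of the 15 receptor genes 4 were higher and 10 lower in leucine minus casein (median −0.15), and 6 higher and 8 lower without casein array 2 (median −0.05). There were 8 higher and 6 lower in dairy minus casein (median 0.08), 10 higher and 4 lower without that array (median 0.07), and 4 higher and 10 lower in leucine minus dairy (median −0.11). By limma 0 of 15 passed over all genes in each comparison. The shares of all genes to set beside the counts of the receptor, secreted-factor, regulator and marker lists are as follows. In leucine minus casein 48.5% were higher and 49.1% lower, in dairy minus casein 50.6% and 46.3%, and in leucine minus dairy 48.4% and 48.5%.

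A wider list of 44 secreted factors had 40 measured genes, and 0 passed in any comparison. With leucine 10 were higher and 28 lower than with casein (median −0.12), but 17 higher and 21 lower without casein array 2 (median −0.01). In dairy minus casein 19 were higher and 20 lower (median −0.0050), but 25 higher and 14 lower without that array (median 0.03), and in leucine minus dairy 14 higher and 25 lower (median −0.06). Nampt, an enzyme of NAD salvage that is also released from cells, read 8.77 and 8.74 with leucine, 8.32 and 8.16 with dairy, and 8.32 and 8.21 with casein. Both leucine arrays lay above the other 4, by 0.49 ± 0.09 relative to casein and 0.52 ± 0.09 relative to dairy (limma adjusted p = 0.353 and 0.514). Lower with leucine were Dcn, the matrix proteoglycan decorin, at −1.08 ± 0.24 against casein and −1.38 ± 0.24 against dairy, and Sparc, a collagen-binding protein, at −0.95 ± 0.17 against dairy. Inhbb, the activin B subunit, stood at −0.34 ± 0.07 in leucine minus casein and −0.18 ± 0.07 in dairy minus casein, where it was −0.12 without casein array 2. Fgf1, a fibroblast growth factor, and Cxcl12, a chemokine, stood at 0.63 ± 0.30 and 0.43 ± 0.22 in dairy minus casein, and at 0.23 and 0.21 without that array.

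Among 16 measured regulators of these genes, 10 were higher and 6 lower in leucine minus casein (median 0.10), 9 and 7 in dairy minus casein (median 0.05), and 9 and 7 in leucine minus dairy (median 0.04). Without casein array 2 the counts became 13 higher and 3 lower in each comparison with casein, with medians of 0.26 and 0.25, and by limma 0 of 16 passed over all genes. Ppara, the fatty acid receptor that drives Fgf21 in liver, read 6.26 and 5.74 with leucine, 5.26 and 5.53 with dairy, and 5.20 and 4.74 with casein. Its leucine arrays lay above the other 4, while Fgf21 itself read between 2.98 and 3.18 on all 6. Creb1, a factor that acts on Bdnf in neurons, stood at 0.31 ± 0.17 in leucine minus casein. Epas1, a hypoxia factor, stood at 0.40 ± 0.23 in dairy minus casein and −0.30 ± 0.23 in leucine minus dairy, and without dairy array 2 these were 0.09 and 0.0079. Mef2d, a muscle transcription factor, stood at −0.26 ± 0.22 in leucine minus dairy, or 0.02 without dairy array 2, and the lipid receptor Ppard at −0.27 ± 0.16 in dairy minus casein, or −0.11 without casein array 2.

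The genes whose pattern was most like a member were sought among the 1438 other genes that ranged over at least 1 log2 unit, by the root mean square difference of the gene-centred log2 values over the 6 arrays. For Ostn these were Akr1b10, an aldo-keto reductase, at 0.43, Adh1c, an alcohol dehydrogenase, at 0.46 and Itih1, a plasma protein of liver origin, at 0.48. Akr1b10 read 7.34 and 7.42 with leucine, 6.29 and 5.95 with dairy, and 6.99 and 6.78 with casein, and was thus also lowest on both dairy arrays. Adh1c read 4.77 and 6.06 with leucine, 4.66 and 4.15 with dairy, and 4.77 and 6.30 with casein. Itih1 read 3.40 and 4.28, 3.41 and 3.10, and 3.61 and 4.40 in the same order. Both were highest on casein array 2 and leucine array 2, which also had the highest summed hepatocyte markers, 12.0 and 10.3. The part of liver transcripts in these patterns was not tested. For Igf1 they were Tsku, Slc11a1 and Prkd2, at 0.09 to 0.10, each high on casein array 2, and Slc11a1 is a metal transporter of macrophages. For Il15 they were Eqtn, Magea4 and Ros1, at 0.13 to 0.14, each high on leucine array 1. The Ostn neighbours lay farther from it than those of Igf1 and Il15 lay from theirs. This distance is not scaled to the range of a gene, which was 2.04 for Ostn, 1.26 for Il15 and 1.03 for Igf1. It therefore does not show that the Ostn pattern is the more particular.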

How the data were processed

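Gastrocnemius RNA of 6 arrays, 2 per diet, was analysed. The authors deposited log2 signals for each transcript cluster, and the tool named in the submitters' processing notes is Affymetrix Expression Console. How background was corrected and arrays normalized was not given in the sources used here. Values between 1.14 and 13.7 and array medians of 3.46 to 3.56 fit a log2 scale.

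Of 29214 clusters, 15310 had 1 annotated gene. Symbols were updated through RefSeq (GRCr8), and 527 genes with several clusters were represented by the brightest, leaving 14506. A limma 3.58.1 model (R 4.3.3) with diet as its term was fitted to all 6 arrays with empirical Bayes (3 residual degrees of freedom), and p-values were adjusted over all 14506 genes (Benjamini-Hochberg, threshold 0.05). In 10 simulated data sets for leucine against casein with 14506 genes and 200 changed genes, 49.0% of 2-fold and 80.9% of 4-fold changes were recovered. On the real arrays 213 genes differed over 2-fold in this comparison and 0 passed. The simulated shares are therefore no measure of the power of the test on these arrays.

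The members and gene lists were chosen with earlier results of these data known. All 8 members are named. From each of 4 pathway lists the 3 genes with the smallest p per comparison are named, and for members ranging over 1 log2 unit or more the 3 genes with the nearest pattern. Other genes named, such as Alb, Myh4 and Myh7, are markers. Markers of 9 cell or fibre types were listed. Those of endothelium, nerve and satellite cells are given here as medians in leucine minus casein, dairy minus casein and leucine minus dairy. They were 0.25, 0.54 and −0.25 for endothelium, −0.52, −0.17 and −0.22 for nerve, and −0.22, −0.03 and −0.06 for satellite cells. In the comparisons with casein, leaving out casein array 2 gave 0 and 0.26 for endothelium, −0.37 and −0.12 for nerve, and 0.16 and 0.18 for satellite cells. As a check for pairing by replicate number, the array 1 minus array 2 differences of 2 diets were correlated across genes. The correlations were 0.179 for leucine and casein, 0.0865 for dairy and casein and 0.0536 for leucine and dairy, so the numbers were not treated as pairs.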

Additional observations from a re-analysis of the deposited data

How the results depend on the processing

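With each array left out, and under quantile normalization, subtraction of array medians, the replicate block, the 4 arrays of 2 diets alone, the dimmest cluster per symbol, genes above the median gene only and trended robust variances, 0 of 24 member values passed the adjusted threshold, as with all arrays. Fgf21, Metrnl, Apln and Bdnf were not tested among the genes above the median gene. The count of genes past it was 0 in every setting that kept 2 arrays of each compared diet. Il6 passed in both comparisons with casein only without casein array 1, where casein was casein array 2 alone. Il6 read 6.97 on casein array 2, and its highest reading on any other array was 2.40. With all arrays Il6 stood at −2.08 in leucine minus casein and −2.34 in dairy minus casein. Without casein array 2 these turned to 0.40 and 0.14, so the Il6 call rests on the reading of 1 array. Of the 24 values 10 kept their direction in every setting run and 11 turned in at least 1. The other 3, those of Bdnf, were 0 with all arrays (dairy minus casein) or without leucine array 2. Only the 2 normalizations and the loss of an array of a compared diet could move a member value. The replicate block, the 4 arrays alone, the dimmest cluster, the genes above the median gene and the trended robust variances could not. Keeping direction in those settings is therefore no support for a value. With single arrays left out, leucine minus casein ranged from −0.15 to 0.44 for Ostn, −0.11 to 0.95 for Il15, −0.0663 to 0.0172 for Fgf21 and −0.92 to 0.11 for Igf1. Dairy minus casein ranged from −0.22 to 0.62 for Fndc5, −0.109 to 0.0907 for Fgf21 and −0.73 to 0.30 for Igf1. Leucine minus dairy ranged from −0.35 to 0.49 for Fndc5, −0.115 to 0.0843 for Fgf21 and −0.0137 to 0.165 for Apln. For the pathway genes it ranged from −0.614 to 0.0079 for Epas1 and from −0.540 to 0.0246 for Mef2d. Quantile normalization and subtraction of array medians turned leucine minus casein to 0.0618 and 0.0382 for Fgf21 and to 0.0743 and 0.0279 for Apln, and dairy minus casein to 0.0784 and 0.0383 for Fgf21. The cause was not tested. With the replicate block, which can alter only the p-values in this balanced design, Ostn remained at −1.56 in dairy minus casein (limma adjusted p = 0.783). It remained at 1.70 in leucine minus dairy (limma adjusted p = 0.694), and the block changed no call. The list counts without casein array 2 were chosen after seeing the data. Over these alternatives the adjusted p of Ostn lay between 0.176 and 0.984 for dairy minus casein and between 0.484 and 0.797 for leucine minus dairy.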
